A study of Mus musculus with 6 samples.

Results

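A set of 10 marker genes of the secretory cells of the conducting airway, above all the club cells, was measured in lungs of mouse embryos at stage E14.5. The genes were taken by name: the secretoglobins Scgb1a1, Scgb3a1 and Scgb3a2, the enzymes Cyp2f2, Cyp2s1, Cbr2 and Aldh1a7, and the secreted defence proteins Bpifa1, Bpifb1 and Reg3g. Each was measured by 1 array feature annotated with that symbol alone, and together they are 10 of the 19946 genes tested. Levels came from 6 single-colour Affymetrix arrays of whole lung, 3 from mutant and 3 from control embryos. Mutant embryos carried Shh-cre together with flox/flox alleles of Foxp1, Foxp2 and Foxp4. Control embryos had Shh-Cre alone, and the mutants share it. Its Cre recombinase is made under control of Shh, a gene active in the endoderm that forms the lung epithelium. All embryos were of a mixed C57BL/6 and 129X1 strain, and the mutants' label names Foxp1 in both of the places where the title of the series has Foxp1 and Foxp2. Cre acts in the epithelium, so mesenchyme, vessels and blood in the same lungs keep the floxed alleles intact.

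Club cells line the bronchi and bronchioles, release secretoglobins and antimicrobial proteins into the airway fluid, break down inhaled chemicals with cytochrome P450 and other enzymes, and serve as progenitors of ciliated and goblet cells. They arise from the Sox2-positive proximal airway epithelium, in part under Notch signalling, while the Sox9-positive distal tips give rise to alveolar cells. Foxp1, Foxp2 and Foxp4 are forkhead transcription factors of the lung epithelium, known mainly as repressors. The series was set up to examine their joint role in lung endoderm identity.

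The arrays were alike in overall level. The median over all features lay between 6.70 and 6.79 on the log2 scale. The lowest correlation was 0.994 between 2 mutant arrays and 0.998 between 2 control arrays. One library stood apart in a marker list: the heart muscle list lay 1.10 above the control mean in mutant 1 at its median, against -0.22 in mutant 2 and -0.20 in mutant 3. The floxed genes were measured first: Foxp2 and Foxp4 fell, and Foxp1 did not pass. Foxp2 read 9.59, 9.55 and 9.60 in mutants 1 to 3, against 10.52, 10.54 and 10.53 in controls 1 to 3 (-0.95 ± 0.05, difference ± SE, limma adjusted p = 4.75e-05). Foxp4 read 8.75, 8.56 and 8.96 in mutants, against 9.43, 9.37 and 9.40 in controls (-0.64, adjusted p = 0.00591). Foxp1 read 9.45, 9.25 and 9.55 in mutants, against 9.68, 9.73 and 9.75 in controls (-0.31, adjusted p = 0.0661, and 0.0428 without mutant 3). The probes' positions relative to the deleted exons were not used here, so these features check the labels only in part.

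A gene was counted as above background on an array where it exceeded the 95th percentile of 1240 features for olfactory, vomeronasal and bitter taste receptors, which lung is not known to need. That level lay between 5.75 and 5.90 on the 6 arrays. At E14.5 control lungs gave a value above background on all 3 arrays for 5 of the 10 genes, Aldh1a7, Cyp2f2, Cyp2s1, Cbr2 and Scgb3a1, where 70.6% of all genes did. In mutant lungs 3 of the 10 did so on all arrays, Cyp2f2, Cyp2s1 and Scgb3a1. With the 99th percentile as the level (6.47 to 6.68), 3 genes remained in controls, Aldh1a7, Cyp2f2 and Cyp2s1, and the same 3 exceeded the array median. Scgb1a1, Scgb3a2, Bpifa1, Bpifb1 and Reg3g were below background on every array of both groups. The plot of values by array shows all 10 genes beside the background level.

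**Figure D1:**
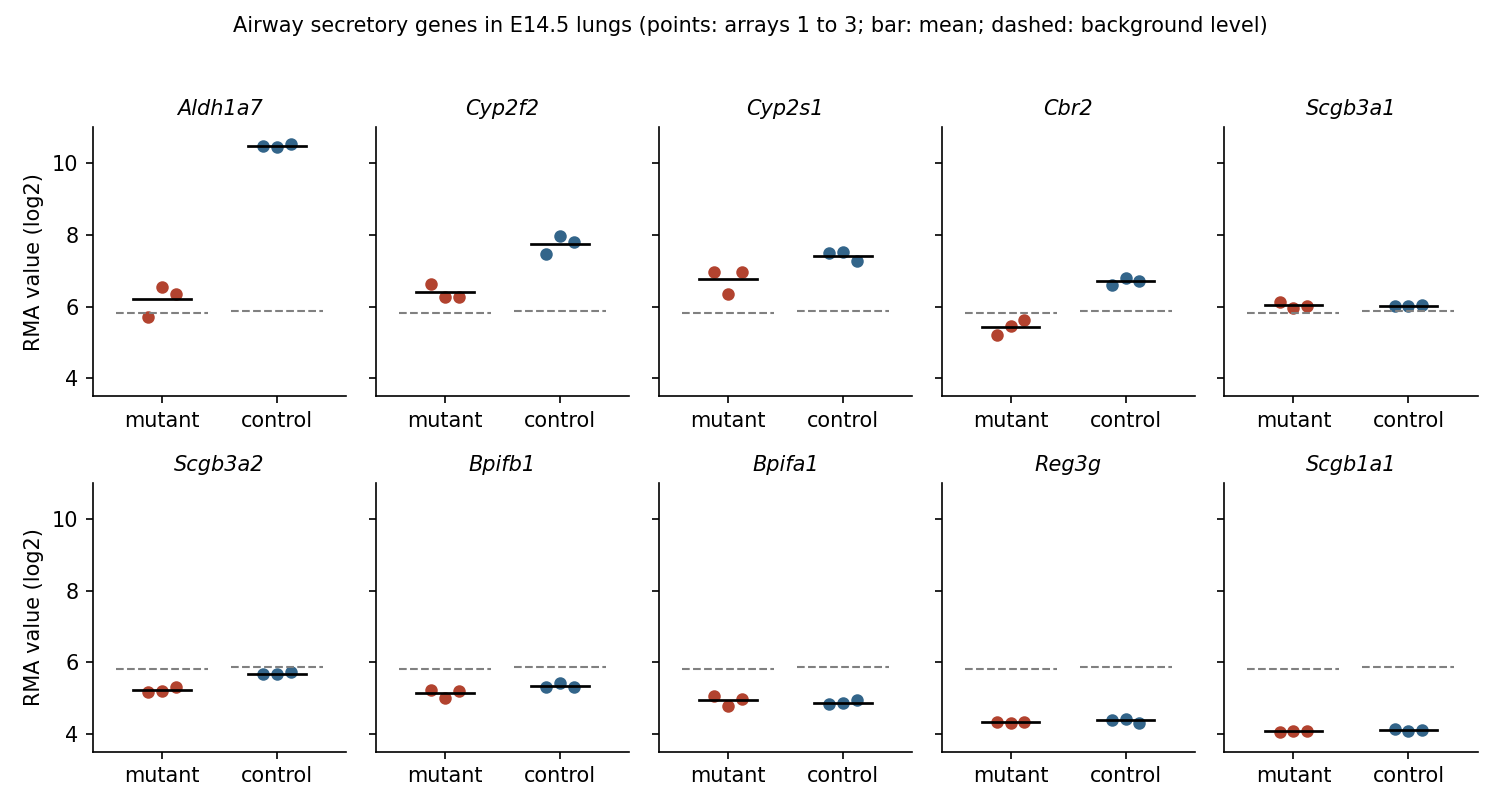
Level of the 10 airway secretory genes in E14.5 lungs. The y axis gives the RMA value on a log2 scale, points are arrays 1 to 3 of each group from left to right, bars are group means and the dashed line is the mean background level of the group. Aldh1a7 stands near 10.5 in the controls and near 6 in the mutants, and the 5 genes of the lower row lie under the dashed line in both groups.

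Of the 10 genes, 5 were lower in mutant lungs, 0 were higher and 5 did not pass the threshold of adjusted p under 0.05. Over all 19946 genes, 3.83% were lower and 3.84% higher by the same rule. The 10 members were chosen with earlier results of these data known, so these shares are a description and no test. The genes that fell were Aldh1a7, Cyp2f2, Cbr2, Cyp2s1 and Scgb3a2. Of these 5, Scgb3a2 was under background on every array. The Cyp2s1 call was lost without any one of the controls or mutant 3. The median difference of the 10 was -0.33 on the log2 scale, beside -0.01 over all genes tested. In 6 of the 10 every mutant value lay below every control value, these 5 and Bpifb1, where 12.6% of all genes showed that. Differences are given as mutant minus control, each with its SE from the limma fit and n = 3 arrays a group. The arrays are of whole lung, so fewer cells making these RNAs and less RNA per cell cannot be told apart. Which cells gave the signal was not tested.

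**Figure D2:**
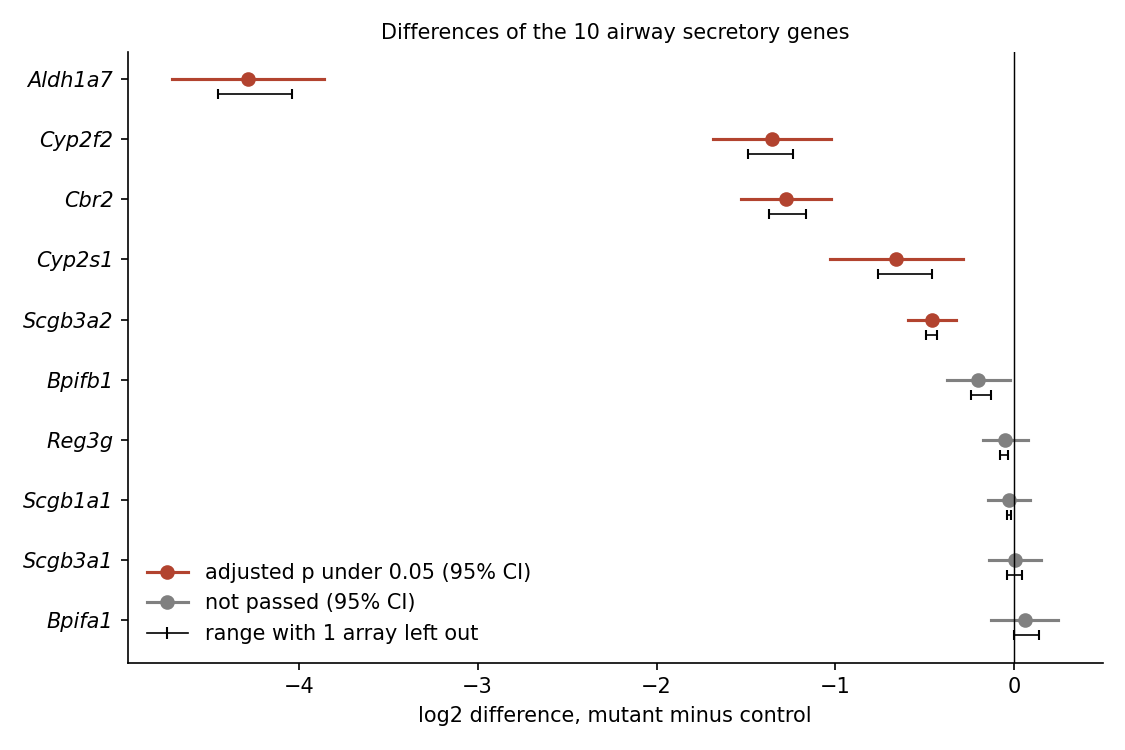
Difference of each airway secretory gene between mutant and control lungs. The x axis gives the log2 difference, mutant minus control, coloured bars are 95% confidence intervals (red for adjusted p under 0.05, grey otherwise) and the thin bars span the values with 1 array left out. Aldh1a7 stands alone near -4.28, and the other 4 genes that passed lie between -1.35 and -0.46.

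The 4 metabolic enzymes of the list all fell. Aldh1a7 encodes an aldehyde dehydrogenase of rodents, a close relative of the retinaldehyde dehydrogenase gene Aldh1a1. It read 5.72, 6.54 and 6.36 in mutants 1 to 3, against 10.48, 10.46 and 10.53 in controls 1 to 3. The control values were almost identical, mutant 1 was the lowest, and the groups were separated by close to 4 log2 units. The group means were 6.21 ± 0.43 in mutants and 10.49 ± 0.04 in controls (SD), a difference of -4.28 ± 0.18 (95% interval -4.71 to -3.86, limma adjusted p = 1.54e-05). Mutant 1 was itself under background and the other two mutants above it. With mutant 1 set to the background level of its array, Aldh1a7 was at least 18.7-fold lower. With any 1 array left out it lay between -4.45 and -4.04, the smallest of these without mutant 1.

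The 250 bases before and 50 after the start of Aldh1a7 and of its neighbour Aldh1a1 are printed to show how alike the starts of the pair are. They are RefSeq windows of build GRCm38.p6, from chr19:20727507-20727806 on the minus strand for Aldh1a7 and chr19:20601718-20602017 on the plus strand for Aldh1a1, given 5′ to 3′ along each gene. Capitals mark runs of 12 or more bases found in both, 8 runs with 174 of the 300 bases and the longest of 65 bases.
Aldh1a7: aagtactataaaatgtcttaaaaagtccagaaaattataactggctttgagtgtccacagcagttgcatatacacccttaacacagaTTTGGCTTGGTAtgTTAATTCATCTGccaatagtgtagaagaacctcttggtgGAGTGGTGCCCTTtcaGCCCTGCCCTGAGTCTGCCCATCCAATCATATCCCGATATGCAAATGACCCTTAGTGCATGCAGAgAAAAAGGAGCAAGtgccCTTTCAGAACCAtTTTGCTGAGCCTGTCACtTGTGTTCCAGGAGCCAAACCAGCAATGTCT
Aldh1a1: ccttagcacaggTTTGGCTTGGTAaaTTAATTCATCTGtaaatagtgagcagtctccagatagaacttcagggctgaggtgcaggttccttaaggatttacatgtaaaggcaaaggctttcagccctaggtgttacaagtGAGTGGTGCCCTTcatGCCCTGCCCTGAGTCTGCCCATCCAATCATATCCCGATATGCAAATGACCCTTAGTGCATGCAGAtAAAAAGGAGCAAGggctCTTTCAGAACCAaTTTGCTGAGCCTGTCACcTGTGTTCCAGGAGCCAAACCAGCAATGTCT
A second Aldh1a1 window of the table, for another start, shared 0 such runs with Aldh1a7, nor did any window of the other 7 members that were read.

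Aldh1a1, which makes retinoic acid from retinaldehyde, lies next to Aldh1a7 in the gene order and was lower too. It read 7.69, 8.14 and 7.14 in mutants, against 9.01, 9.07 and 8.95 in controls (-1.35 ± 0.21, 2.55-fold, adjusted p = 0.00737). All mutants were below all controls, but the lowest was mutant 3 for Aldh1a1 and mutant 1 for Aldh1a7. Within each array, Aldh1a7 minus Aldh1a1 was -1.96, -1.61 and -0.78 in mutants, against 1.48, 1.39 and 1.58 in controls. Only the change of this contrast can be read, since levels of different features are not on one scale. It changed by -2.93, without overlap (exact permutation test, two-sided, p = 0.1, the smallest p that 3 arrays against 3 allow). Aldh1a7 was under background in mutant 1, so the -1.96 of that lung and the -2.93 are not measured sizes. The probe sequences were not used here, so how far either feature also binds RNA of the other gene was not tested.

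Cyp2f2 encodes a cytochrome P450 abundant in mouse club cells, where it activates naphthalene. It read 6.63, 6.28 and 6.27 in mutants, against 7.47, 7.97 and 7.79 in controls. The groups did not overlap, and every mutant stayed above background. The means were 6.39 ± 0.20 in mutants and 7.75 ± 0.26 in controls, a difference of -1.35 ± 0.14 (95% interval -1.68 to -1.02, 2.55-fold, adjusted p = 0.00111). Left-out arrays gave -1.49 to -1.24. Its neighbours in the gene order are Cyp2a12 (-0.13 ± 0.05, adjusted p = 0.22) and Cyp2t4 (0.00 ± 0.06, adjusted p = 0.984), which did not pass.

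Cbr2 encodes a carbonyl reductase of the mouse lung that reduces aldehydes and ketones. It read 5.20, 5.46 and 5.62 in mutants, against 6.60, 6.81 and 6.70 in controls. All 3 mutants were under background and all 3 controls above it. The means were 5.43 ± 0.21 in mutants and 6.70 ± 0.10 in controls (-1.28 ± 0.11, 95% interval -1.53 to -1.03, adjusted p = 0.000379). Since the mutant values have only a bound, Cbr2 was at least 1.84-fold lower, taking per mutant array the higher of its own value and the background level. Left-out arrays gave -1.37 to -1.16. The neighbouring Dcxr, an enzyme of the same reductase superfamily, did not pass (-0.07 ± 0.07, adjusted p = 0.684).

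Cyp2s1, a cytochrome P450 expressed mainly outside the liver, airway epithelium included, read 6.96, 6.36 and 6.97 in mutants, against 7.49, 7.51 and 7.27 in controls. Mutant 2 was far lower than the other two mutants, and no mutant reached the lowest control. The difference was -0.66 ± 0.16 (95% interval -1.03 to -0.29, 1.58-fold, adjusted p = 0.0472). This is the least secure of the 5 calls. It was lost without control 1 (adjusted p = 0.161), control 2 (0.163), control 3 (0.0937) or mutant 3 (0.054), and with the replicate number as a block (0.065). Without mutant 2 the difference was -0.46 (adjusted p = 0.0176).

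The secretoglobins are small secreted proteins that mark the secretory cells of the airway. Scgb3a2, one of the first of them made in the developing airway and a known target of Nkx2-1, read 5.18, 5.21 and 5.30 in mutants, against 5.67, 5.66 and 5.72 in controls. The groups were tight and did not overlap (-0.46 ± 0.06, 95% interval -0.59 to -0.32, adjusted p = 0.00266). Every value of both groups was under the background level of its array, so no fold is given. The call was kept with any 1 array left out (-0.49 to -0.43, adjusted p up to 0.0206).

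Scgb3a1, which is made in the upper conducting airway, read 6.13, 5.95 and 6.01 in mutants, against 6.03, 6.01 and 6.04 in controls. The mutants fell on both sides of the controls, with a difference of 0.01 (95% interval -0.14 to 0.15, adjusted p = 0.982). Its sign turned under quantile normalization (-0.01) and array centring (-0.02). It was above the 95th percentile of the sensory receptors on all 6 arrays and above the 99th on 0. Scgb1a1, the classical club cell secretory protein, read 4.06, 4.08 and 4.07 in mutants, against 4.13, 4.07 and 4.10 in controls and was under background throughout, with overlapping groups. Its difference was -0.03 (95% interval -0.15 to 0.09, adjusted p = 0.832).

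The secreted defence genes were all under background. Bpifa1, a surface-active protein of the upper airway, read 5.05, 4.77 and 4.98 in mutants, against 4.83, 4.87 and 4.94 in controls (0.06, 95% interval -0.13 to 0.25, adjusted p = 0.786). The groups overlapped. Bpifb1, its larger relative, read 5.24, 5.02 and 5.21 in mutants, against 5.31, 5.43 and 5.32 in controls (-0.20, 95% interval -0.37 to -0.03). All 3 mutants were below all controls, with an unadjusted limma p of 0.029 and an adjusted p of 0.181, so the gene did not pass. Reg3g, a lectin that binds the wall of Gram-positive bacteria, read 4.35, 4.30 and 4.33 in mutants, against 4.40, 4.41 and 4.32 in controls (-0.05, 95% interval -0.18 to 0.08, adjusted p = 0.708). These intervals describe array signal under the background level and set no limit on the RNA.

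The shift of each mutant lung differed between the genes that fell. Relative to the control mean, mutants 1 to 3 lay at -4.77, -3.95 and -4.13 for Aldh1a7 and at -1.50, -1.24 and -1.08 for Cbr2. For Cyp2f2 the same shifts were -1.12, -1.47 and -1.47, and for Cyp2s1 they were -0.46, -1.06 and -0.45. Mutant 1 was thus the lowest lung for Aldh1a7, mutant 2 was lowest for Cyp2s1, and mutants 2 and 3 were lower than mutant 1 for Cyp2f2. The Cbr2 and Scgb3a2 values of all 3 mutants were under background, so the order of the lungs cannot be read from them. Without mutant 1, the lung with the high heart muscle values, the differences were -4.04 for Aldh1a7, -1.47 for Cyp2f2, -1.16 for Cbr2, -0.76 for Cyp2s1 and -0.43 for Scgb3a2, and all 5 calls were kept.

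Part of the general epithelial genes were lower as well. Of 27 measured genes shared by most epithelia, 14 fell and 0 rose, while 13 did not pass and the median difference was -0.42 (7 fell without control 2, 8 without control 1 and 9 without control 3). Krt7 and Krt8, keratins of simple epithelia, fell by 1.44 and 1.03 on the log2 scale, the splicing regulator Esrp2 by 1.15 and the membrane protease Prss8 by 0.89. Epcam, a general epithelial adhesion gene, differed by -0.33 (adjusted p = 0.0384), a call lost when any array but mutant 3 was left out (up to 0.147), and Cdh1, which encodes E-cadherin, by -0.19 (adjusted p = 0.0684). The list's mean level was 8.38, 8.62 and 8.67 in mutants 1 to 3, against 9.05, 9.02 and 8.99 in controls 1 to 3, and 1 of its genes was below background on every control array. Its median shift from the control mean was -0.61, -0.35 and -0.27 in mutants 1 to 3.

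**Figure D3:**
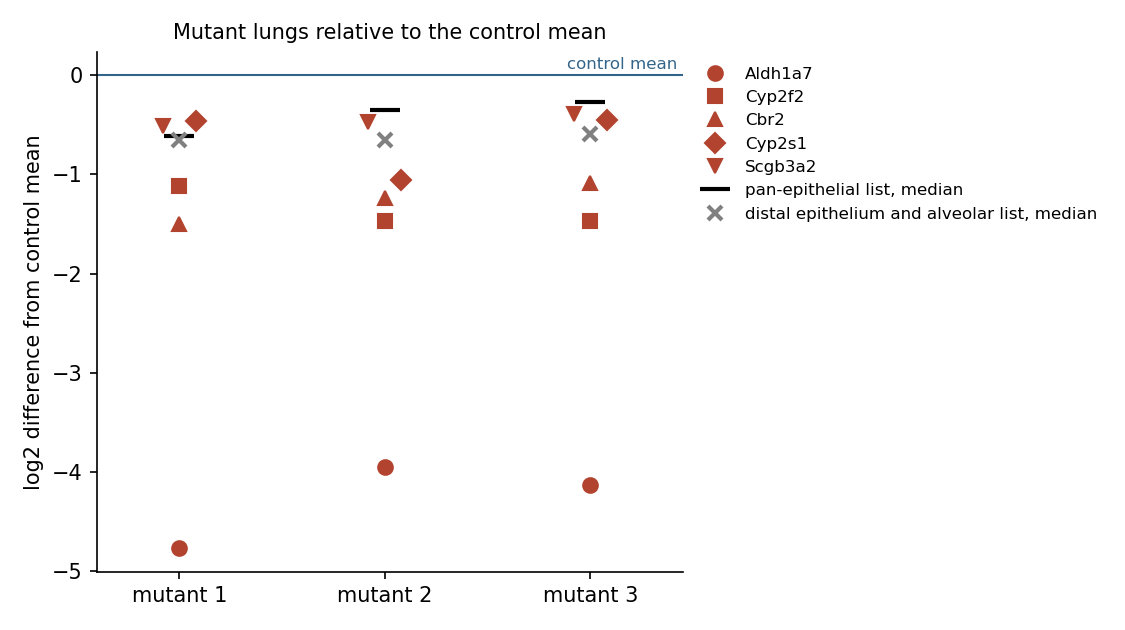
The 5 airway secretory genes that fell, in each mutant lung relative to the control mean. The y axis gives the log2 difference from the mean of the 3 controls. Black bars are the median of the pan-epithelial list and crosses that of the distal epithelium and alveolar list. Aldh1a7, Cyp2f2 and Cbr2 lie below both medians in all 3 lungs. Scgb3a2 lies close to the medians in all 3 lungs, and Cyp2s1 does so in mutants 1 and 3. All points of Cbr2 and Scgb3a2 and the Aldh1a7 point of mutant 1 are under background.

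When each array was centred on the median of that epithelial list, Aldh1a7 still differed by -3.82, Cyp2f2 by -0.89 and Cbr2 by -0.81, with all mutants below all controls. The centred difference was -0.20 for Cyp2s1 and 0.00 for Scgb3a2, both with overlapping groups. Cbr2 was under background in all mutants, Scgb3a2 on every array and Aldh1a7 in mutant 1. The centred values of Cbr2 and Scgb3a2 are thus not measured sizes. This centring moves the median of all genes to 0.45, and the values carry no test, because the error of the centring is shared by every gene. The part of a smaller epithelial share in the members' differences was not tested beyond these values.

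Regulators of airway and secretory cells, general factors of the lung epithelium included, were lower in part. Of 25 measured regulators 9 fell and 1 rose, while 15 did not pass and the median was -0.16 (5 fell without control 2; 0 rose without any one of the arrays other than mutant 2). Sox2, which specifies the proximal airway, read 7.13, 6.64 and 6.37 in mutants, against 8.75, 8.84 and 8.80 in controls (-2.08 ± 0.17, 4.24-fold, adjusted p = 0.000297). Elf5, an ETS factor of the distal lung epithelium, was under background in mutant 1 and at least 2.51-fold lower (adjusted p = 0.000597). Foxa2 differed by -0.94 ± 0.12 (adjusted p = 0.00258) and Nkx2-1 by -0.88 ± 0.11 (0.0026). Foxa2 and Nkx2-1 act on many airway and alveolar genes, Scgb1a1 and Scgb3a2 among them. Of the 9 that fell, Elf3, Grhl2 and Ehf are also in the epithelial list and Hopx is also in the distal list, so the lists share these calls, and Ehf was under background on all 6 arrays. The 1 gene that rose was the receptor gene Notch2 (0.32 ± 0.07, adjusted p = 0.0337). Of the other Notch receptor genes listed, Notch1 fell (-0.45 ± 0.08, limma adjusted p = 0.0131) and Notch3 did not pass (-0.05, adjusted p = 0.867). Sox2 and Foxa2 were lowest in mutant 3, whereas Nkx2-1 was lowest in mutant 1. For Elf5 the order of mutants 1 and 2 cannot be read, because mutant 1 was under background.

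The other club cell genes mostly did not pass. Of 19 measured, 1 fell and 1 rose, while 17 did not pass and the median was -0.05 (3 fell without mutant 1). The tight junction gene Cldn10 averaged 6.31 ± 0.09 in mutants and 8.71 ± 0.49 in controls (SD, -2.40 ± 0.21, 5.28-fold, adjusted p = 0.000432). The aldehyde oxidase gene Aox3 went the other way, with 6.18, 6.37 and 6.48 in mutants, against 5.29, 5.54 and 5.56 in controls, where it was under background (at least 1.39-fold higher, adjusted p = 0.00164). In the list of goblet cell genes 2 of 17 fell and 0 rose, while 15 did not pass and the median was -0.07 (1 fell without control 2 or control 3; 1 rose without mutant 3). The 2 were the membrane mucin gene Muc4 (-0.48 ± 0.06, adjusted p = 0.00187) and Foxa3, a goblet cell transcription factor (adjusted p = 0.0132, and 0.0687 without control 3). Foxa3 was under background on all 3 mutant arrays and on 1 control array, so no size is given.

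Most relatives of the members by sequence family did not pass. Of 28 measured secretoglobin, BPI fold and Reg relatives, 23 were below background on every control array. In that list 2 fell and 0 rose, while 26 did not pass and the median was -0.03 (1 fell without control 1, control 2, mutant 2 or mutant 3). Lbp, which encodes the lipopolysaccharide binding protein, fell by 2.10 ± 0.17 (adjusted p = 0.000299), and Bpifb5 differed by -0.29 (adjusted p = 0.0327, and up to 0.138 with 1 array left out). Of 33 measured relatives of the enzymes, 1 fell and 3 rose, while 29 did not pass and the median was -0.02. Aldh1a1 was the gene that fell, and 2 fell without mutant 1 or mutant 2. The 3 that rose, Aldh3b1 (0.36), Aldh2 (0.33) and Aldh1a3 (0.30), all dehydrogenases, were not called without control 2, control 3 or mutant 3 (0 rose) or with each array centred on its median. Among the 19 nearest measured neighbours of the members in the genome that are not members themselves, 1 fell, Aldh1a1, and 0 rose.

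Genes of other epithelial cell types were counted in the same way. Of 24 distal epithelium and alveolar genes 17 fell and 0 rose, while 7 did not pass and the median was -0.61. The surfactant gene Sftpc was at least 47.2-fold lower, Cldn18 at least 26.7-fold and Muc1 at least 9.25-fold, each with 1 or 2 of the 3 mutant arrays under background and set to that level. Egfl6 differed by -1.74 ± 0.21. Of 21 ciliated cell genes 4 fell and 0 rose, while 17 did not pass and the median was -0.03 (2 fell without control 1, control 2 or mutant 3; 1 rose without control 3). They were Tppp3 (-0.88), Ccno (-0.38), Myb (-0.37) and Gmnc, which was under background on all 6 arrays. In the neuroendocrine list 0 of 14 fell and 1 rose, Bex2 (0.63), a call absent without any one of the controls or mutant 1 (0 rose; 2 rose without mutant 3), with a median of -0.01. Of 18 basal and stratified genes, which share Pdpn with the distal list, 1 fell, Pdpn (-0.52), and 2 rose, the desmosomal gene Dsc3 (at least 1.17-fold higher, under background in all 3 controls and in mutant 3) and the basal cell factor Trp63 (0.34), with a median of -0.09. Without control 1 or control 3 none of these fell, without mutant 1 2 fell, and 1 or fewer rose when any array but mutant 2 was left out (0 without control 3). The plot of calls per list sets these counts beside the shares over all genes.

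**Figure D4:**
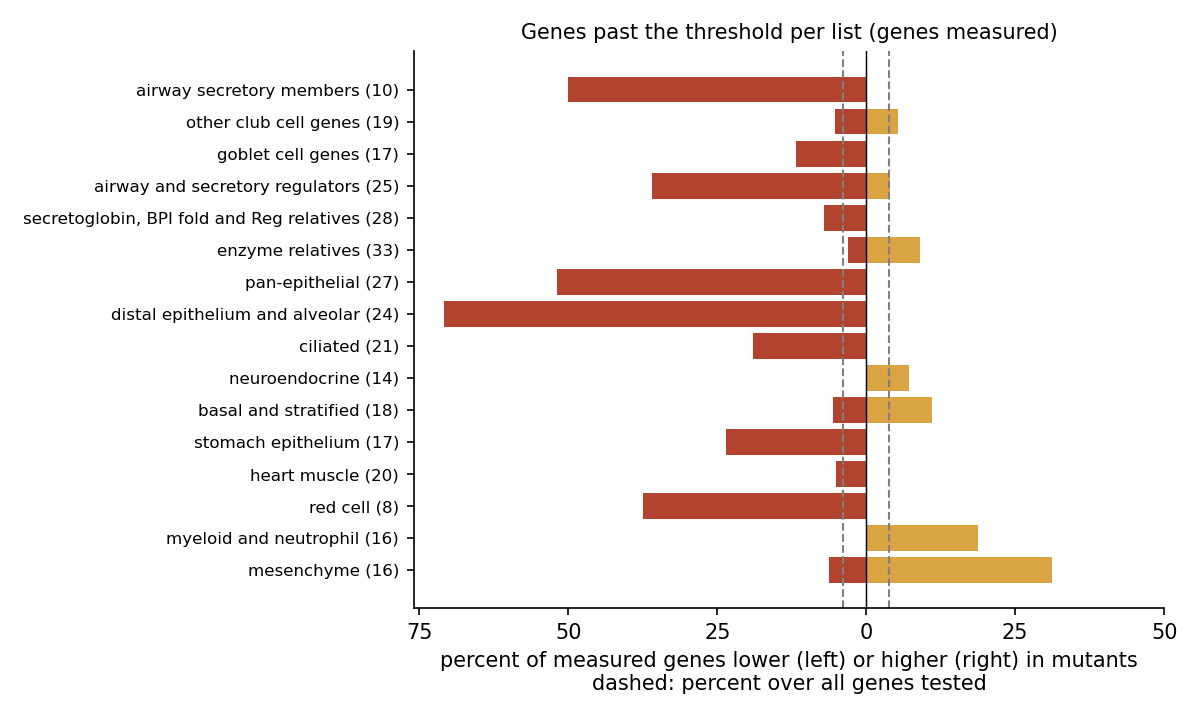
Share of each list's measured genes that were lower (left, red) or higher (right, yellow) in mutant than in control lungs at adjusted p under 0.05. The number of genes measured stands in brackets and dashed lines mark 3.83% lower and 3.84% higher over all genes tested. The airway secretory genes have 50% lower, next to 51.9% of pan-epithelial and 70.8% of distal epithelium and alveolar genes. Scgb3a2, counted as lower among the airway secretory genes, was under background on every array.

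Markers of tissues that a lung dissection can carry along were measured beside these genes. Of 17 stomach genes 4 fell and 0 rose, led by Cym (-4.06 ± 0.37) and Ctse (-1.94 ± 0.15), and the median was -0.08. Pgc was at least 1.25-fold lower, with all 3 mutants under background. Gkn3 was under background on all 6 arrays, and its call was lost without control 1 (adjusted p = 0.12), control 3 (0.13) or mutant 3 (0.085). The list's mean level was 5.92, 5.75 and 5.87 in mutants, against 6.29, 6.33 and 6.28 in controls, and 8 of its genes were below background on every control array. Of 20 heart muscle genes 1 fell, Smpx (-0.99), and 0 rose, with a median of 0.18 and a mean level of 8.13, 6.80 and 6.71 in mutants, against 7.15, 7.13 and 7.15 in controls. Without mutant 1, 6 heart genes fell, and without any one of the controls 0 did. Of 8 measured red cell genes 3 fell, Slc4a1 (-1.09), Alas2 (-1.04) and Epb42 (-0.43), and 0 rose, with a median of -0.15. Their mean level was 8.25, 8.24 and 8.04 in mutants, against 8.37, 8.86 and 8.37 in controls.

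Cells of the lung other than epithelium were measured too. Of 16 myeloid and neutrophil genes 0 fell and 3 rose, Adgre1 (0.49), Csf1r (0.43) and Cx3cr1 (0.39), with a median of 0.05 (0 rose without control 1 or control 2, 1 without control 3; 1 fell without mutant 1). Their mean level was 6.59, 6.61 and 6.71 in mutants, against 6.58, 6.54 and 6.58 in controls. Of 16 mesenchymal genes 1 fell and 5 rose, led by Prrx1 (1.09 ± 0.07), the growth factor gene Fgf10 (0.77 ± 0.06), Lum (0.67) and Twist1 (0.57), with Pdgfrb (0.36) as the fifth and Foxf1 (-0.38) the gene that fell. The list had a median of 0.03 and a mean level of 10.40, 10.33 and 10.44 in mutants, against 10.22, 10.16 and 10.23 in controls. Without control 1 or control 2 3 mesenchymal genes rose, and 2 without control 3, and without any one of the controls 0 fell. The part of these tissue differences in the members' values was not tested.

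The stretches around the starts of the members were searched for binding cores of factors of the airway program, chosen with the results known. RefSeq windows of build GRCm38.p6, 250 bases before to 50 after a start, were read for 8 of the 10 members in 9 windows, without Scgb1a1 and Scgb3a2. The search left out the windows of a whole chromosome, and whether Scgb1a1 and Scgb3a2 hold a core was not tested. The Nkx2-1 core CAAGTG, on either strand (CACTTG on the other), stood in windows of 3 members, Aldh1a7, Cyp2f2 and Scgb3a1. Over all 32851 windows searched 13.6% held it, a share of windows beside a count of genes. The forkhead core TGTTTA (13.4% of windows) and the SOX core ACAATG (12.6%) stood in 0 members' windows. In Aldh1a7 the core began 19 bases before and 16 after the start, and in the printed Aldh1a1 window 115 before it. For Cyp2f2, at chr7:27119705-27120004 on the plus strand, it began 191 bases before the start, and for Scgb3a1, at chr11:49663345-49663644 on the plus strand, 174 before. Those windows are printed because a gene that fell and a gene that did not pass both hold it, with the core in capitals.
Cyp2f2: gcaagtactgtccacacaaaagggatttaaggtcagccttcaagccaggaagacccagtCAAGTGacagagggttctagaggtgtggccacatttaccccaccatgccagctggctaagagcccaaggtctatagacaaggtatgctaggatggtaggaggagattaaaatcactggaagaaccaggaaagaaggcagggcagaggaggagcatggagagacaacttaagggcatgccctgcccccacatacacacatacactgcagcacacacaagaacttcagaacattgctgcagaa
Scgb3a1: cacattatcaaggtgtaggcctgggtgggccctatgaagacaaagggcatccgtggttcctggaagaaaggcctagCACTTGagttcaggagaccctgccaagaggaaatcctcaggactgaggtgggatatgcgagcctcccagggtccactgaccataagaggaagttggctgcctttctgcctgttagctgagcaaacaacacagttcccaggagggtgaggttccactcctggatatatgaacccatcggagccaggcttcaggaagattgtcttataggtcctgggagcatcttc
A match of these letters is a description and not a bound site.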

How the data were processed

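The authors deposited log2 values from RMA, which subtracts background, normalizes arrays and summarises probes. The tools oligo, RMA and limma come from the submitters' processing notes, with no versions. Total RNA was column-purified, primed with poly(T)-T7, amplified and biotin-labelled, per the labels' protocols. RMA compresses dim differences. Its settings and the genome build were not given in the sources used here. Scanner files were not used. The values carry no depth or detection calls, so 3 arrays per group limit the precision. Replicates are embryos, per the series.

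Of 35556 features, 23410 were annotated, 21797 with 1 symbol and 1613 with several; 21698 of the single-symbol features matched a RefSeq gene of GRCm38.p6 by Entrez identifier. That build gave gene order and promoter windows only. Single-symbol features entered, each gene at its feature of highest mean over the 6 arrays, giving 19946 genes. Groups were compared with limma 3.58.1 in R 4.3.3 (lmFit, eBayes, two-sided, group only) and Benjamini-Hochberg adjustment over all genes at 0.05. On simulated data of 19946 genes the fit recovered 82.1% of 67 genes changed 1.5-fold and 98.5% of 67 at 2-fold, with 10 false calls. Far fewer genes were changed there than the 1528 called in these data, so the rates need not hold here. The 10 members, the lists (other club, goblet, regulators, family and enzyme relatives, epithelial, tissue and blood cell lists) and the motifs were chosen with earlier results of these data known. Genes named are the members, Foxp1, Foxp2, Foxp4, Aldh1a1 and up to 4 genes past the threshold per list with the largest difference. Cdh1, Epcam, Notch1, Notch2, Notch3, Pdgfrb, Foxf1 and the members' neighbours were added after values were seen. Alternatives were a further quantile normalization, centring on the array or epithelial median, a filter leaving out the lowest 1 of 3 parts of genes by mean, other features per gene, robust moderation, a replicate block, left-out arrays, other thresholds and other background levels. Same-numbered arrays deviated with correlations of -0.07, 0.05 and 0.15, so the numbers were not taken to pair samples.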

Additional observations from a re-analysis of the deposited data

How the results depend on the processing

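The count of 5 lower airway secretory genes was 4 to 5 with 1 array left out, 4 with the replicate number as a block (1137 genes called over all genes, against 1528 without it), 4 with all features tested and 4 with a 1.5-fold minimum as well. The block ended the call of Cyp2s1 alone among the members, and the numbers share no more than a name. Leaving out the lowest 1 of 3 parts of genes by mean gave 3, since only Aldh1a7, Cyp2f2 and Cyp2s1 were then tested, and under every alternative with a test 0 were higher. The 5 above background in controls became 3 by the 99th percentile and 3 by the array median, and 5 with 2 of 3 arrays required. Aldh1a7, Cyp2f2, Cbr2 and Scgb3a2 kept their calls under each alternative that tested them, apart from the fold minimum for Scgb3a2. The adjusted p of Cyp2s1 ran from 0.0176 to 0.163. The near-zero difference of Scgb3a1 turned to -0.00902 by quantile normalization and -0.0174 by array centring, and ran from -0.0429 (without mutant 1) to 0.0455 with 1 array left out, passing -0.00172 without control 2. Bpifa1 ran from -0.00157 (without mutant 1) to 0.139. Centring on the epithelial list turned Scgb3a2 to 0.0026, Epcam to 0.14, Foxa3 to 0.00837, Bpifb5 to 0.17, Gmnc to 0.021, Ccno to 0.077, Myb to 0.095, Gkn3 to 0.14 and Epb42 to 0.027, which by construction adds the epithelial shift to each gene. The share of lower among all calls was 49.9%, and 56.5% and 57.1% under quantile normalization and array centring. Signal over background limits the 5 members under it.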

Other observations

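In the goblet cell list the chloride channel regulator gene Clca1, singled out after its values were seen, was highest in mutant 3. It read 6.19, 6.20 and 7.13 in mutants, against 5.76, 5.61 and 5.74 in controls, where it was under background. The difference was 0.80 ± 0.23 with an adjusted p of 0.0831 by limma, so it did not pass, and all 3 mutants were above all 3 controls. Agr2, a protein disulphide isomerase of mucus-secreting cells in the same list, did not pass (limma adjusted p = 0.356). It read 4.89, 5.12 and 6.00 in mutants, against 4.84, 4.90 and 4.87 in controls. Only mutant 3 was above background, so its difference of 0.47 ± 0.25 rests on that array.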
